A study of Mus musculus with 21 samples.

Results

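The DNA binding of CREB1(A297V) was compared between arrays whose new DNA strand carried 5-hydroxymethylcytosine (5hmC) and arrays whose new strand carried 5-methylcytosine (5mC). The members are the 6 protein binding microarrays of this mutant on those bases, of 21 arrays in the series: 4 on 5hmC and 2 on 5mC, chosen by the protein and the base named in their labels. CREB1(A297V) is the bZIP DNA-binding domain of mouse CREB1 with 1 alanine replaced by valine (A297V), made by site-directed mutagenesis, fused to an N-terminal GST tag and produced by transcription and translation in vitro from a plasmid. Each array holds short DNA probes that were made double-stranded with unmodified, methylated or hydroxymethylated cytosine. Modified arrays are therefore hemi-modified: the new strand holds 5mC or 5hmC in place of every C, and the template strand holds plain C. A further 2 arrays of CREB1(A297V) on unmodified cytosine served as the reference level. CREB1 (1 array on 5mC, 2 on 5hmC) and CEBPB(V285A) (2 on each), the CEBPB domain with 1 valine replaced by alanine, entered the comparison between proteins. Whether the replicates used separately made protein is not in the labels, and the p-values therefore cover only the spread from array to array, which may be technical.

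bZIP proteins grip DNA as dimers. Each basic region reads one side of the site in the major groove, where the methyl group of 5mC and the hydroxymethyl group of 5hmC also lie. CREB1 is a transcription factor known for binding the cAMP response element (CRE), a palindrome with a central CG. C/EBP proteins and PAR proteins, the latter including DBP, HLF and TEF, prefer other bases beside the same centre. 5mC in CG pairs is the common DNA mark of vertebrates, and TET enzymes oxidise it to 5hmC.

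All 8-mers below are the new strand, 5′ to 3′, in lower case, with its cytosines, the bases that carry the modification, in capitals. The first is the PAR palindrome, the highest 8-mer of the mutant by mean on both modified bases. Each palindrome joins a core of 4 bases to its reverse complement: GTAA (PAR), GTCA (CRE) or GCAA (C/EBP). The CRE/PAR hybrid is the reverse complement of a CRE core followed by a PAR core, and the CRE palindrome is the usual site of CREB1. The next differs from the PAR palindrome in its first base alone and had the largest fall. The last 3 differ from it in its only cytosine and carry no modified base within the 8-mer. They serve as a comparison within each array, although they are weaker sites and their probes can hold modified C beside the 8-mer.
PAR palindrome: ttaCgtaa
CRE/PAR hybrid: tgaCgtaa
CRE palindrome: tgaCgtCa
PAR palindrome with C first: CtaCgtaa
PAR palindrome with central C to G: ttaggtaa
PAR palindrome with central C to T: ttatgtaa
PAR palindrome with central C to A: ttaagtaa

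Binding is given as the authors' Z-score of an 8-mer, which sets the signal of all probes that hold it against the other 8-mers of the same array. A Z-score is thus a level relative to its array, and how far it was scaled by the array's own spread bears on every comparison between arrays. The 8-mers had a median of 17 probes, from 40330 spots per array. The median spot intensity was 1859 and 2357.5 on the 5mC arrays and 1399, 1673, 76 and 288 on 5hmC replicates 1 to 4. 5hmC replicate 3 was the dimmest, with a local background of 68 against its median of 76, and 56.1% of the spots of 5hmC replicate 2 were at or below their local background. The names of the deposited files hold a number that is called the run here, although the labels do not say what it stands for. Both 5mC arrays and 5hmC replicates 1 and 2 share it with the reference arrays. 5hmC replicates 3 and 4 have other numbers, and replicate 4 shares its run with the CEBPB(V285A) arrays on 5hmC. Across the 64511 8-mers with at least 8 probes, Pearson's r was 0.73 between the 5mC arrays and 0.33 to 0.61 between 5hmC arrays. Between a 5mC and a 5hmC array it was 0.39 to 0.66. 5hmC replicate 1 had r of 0.66 and 0.53 with the 5mC arrays but 0.48, 0.40 and 0.33 with 5hmC replicates 2 to 4. It was thus closer to the 5mC arrays of its run than to its own group.

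The PAR palindrome ttaCgtaa had Z-scores of 46.1 and 52.0 on 5mC and of 15.7, 21.9, 24.7 and 24.3 on 5hmC. All 4 arrays on 5hmC were below both arrays on 5mC, whereas the reference arrays, at 62.8 and 47.5, overlapped the 5mC arrays. The mean was 49.0 ± 4.11 (SD, n = 2) on 5mC and 21.7 ± 4.17 (SD, n = 4) on 5hmC, a difference of -27.4 (SE 7.01) that did not pass the threshold (limma, adjusted p = 0.084). It still ranked highest by group mean of all 8-mers on 5hmC, as it did on 5mC and on C. It passed on the asinh scale (limma, adjusted p = 0.020) and after division by the array SD (limma, adjusted p = 0.013). It stayed negative but did not pass with quantile normalisation (-22.8; limma, adjusted p = 0.27) or with Z-scores recomputed from the spots (-6.77; limma, adjusted p = 0.25). With normexp background correction before recomputing it turned to 6.49 (limma, adjusted p = 0.32), the one alternative that turned it. The intensities behind it, given further below, did not turn.

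The CRE/PAR hybrid tgaCgtaa stood at 35.0 and 45.2 on 5mC and at 12.4, 15.8, 18.0 and 13.8 on 5hmC. Its groups did not overlap either, and its reference arrays, at 35.6 and 39.1, were in the range of 5mC. The difference of -25.1 (SE 24.3) did not pass the threshold (limma, adjusted p = 0.65), with a standard error pooled over all proteins. It passed after quantile normalisation (-32.6; limma, adjusted p = 0.0083) and on the asinh scale (limma, adjusted p = 0.044), and it turned after normexp, to 5.63.

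CtaCgtaa, the PAR palindrome with C in place of its first T, fell the most of all 8-mers with at least 8 probes. It stood at 28.6 and 46.1 on 5mC and at 6.69, 6.64, 3.26 and 4.51 on 5hmC. The reference arrays gave 4.92 and 7.53, so of the 3 forms this site was by far the highest on 5mC. The 5hmC arrays lay within or below the reference range. By mean it still ranked 119 on C and 145 on 5hmC of all 8-mers. The mean was 37.4 ± 12.4 (SD, n = 2) on 5mC and 5.28 ± 1.69 (SD, n = 4) on 5hmC, a difference of -32.1 (SE 4.34; limma, adjusted p = 0.013). Without 5hmC replicates 3 and 4 the difference was -30.7, with an adjusted p of 0.064 in limma. With the spread taken from the arrays of this mutant alone the adjusted p was 0.28, and without 5mC replicate 2 it was 0.13. The sign was negative under every alternative tried for this site. It ranked 3 by mean on 5mC, and on the 5hmC arrays it ranked 78, 149, 939 and 272.

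The PAR sites without cytosine had higher mean Z-scores on 5hmC, though none passed the threshold, and the spot intensities of ttaggtaa and ttatgtaa, given further below, did not share this direction. ttaggtaa stood at 7.66 and 14.6 on 5mC and at 14.2, 25.4, 16.9 and 14.5 on 5hmC, with 11.9 and 14.1 on the reference arrays. Its groups overlapped, and the difference of 6.61 (SE 2.80) did not pass the threshold (limma, adjusted p = 0.26). ttatgtaa had 5.58 and 9.85 on 5mC and 10.4, 18.9, 11.4 and 15.8 on 5hmC, so that all arrays on 5hmC were above both on 5mC (difference 6.37; limma, adjusted p = 0.89). ttaagtaa had 3.30 and 4.56 on 5mC and 5.18, 7.52, 7.36 and 5.41 on 5hmC, again without overlap (difference 2.44; limma, adjusted p = 0.22). After normexp all 3 passed (limma, adjusted p = 0.033, 0.048 and 0.040 in this order). ttaggtaa ranked 51 and 23 on the 5mC arrays and 7, 1, 7 and 8 on the 5hmC arrays.

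**Figure D1:**
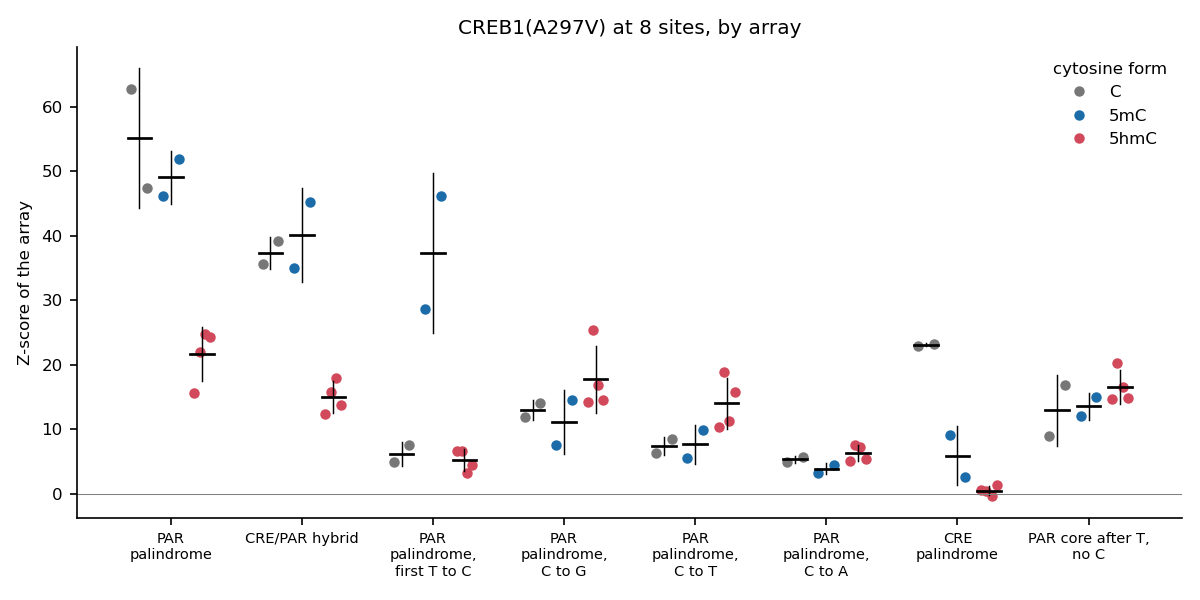
Z-score of CREB1(A297V) at 8 sites (horizontal axis) on each array with C, 5mC or 5hmC on the new strand; points are arrays, horizontal lines group means and vertical lines 1 SD. The PAR palindrome lies at 46.1 and 52.0 on 5mC and between 15.7 and 24.7 on 5hmC, while the same site with its C changed to G lies at 7.66 and 14.6 on 5mC and between 14.2 and 25.4 on 5hmC.

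Gaps between 2 sites of the same array do not depend on where the array is centred. The Z-score of ttaCgtaa minus that of ttaggtaa was 38.5 and 37.3 on 5mC and 1.478, -3.46, 7.87 and 9.81 on 5hmC, with 50.8 and 33.4 on the reference arrays. On 5hmC replicate 2 the site without cytosine was thus the higher of the pair. The mean gap was 37.9 ± 0.821 (SD, n = 2) on 5mC and 3.92 ± 6.07 (SD, n = 4) on 5hmC. The groups did not overlap. An exact two-sided permutation test of 4 arrays against 2, taken as 2 times the smaller tail, cannot go below p = 0.133. No other test was run on this gap. The gap's groups stayed apart with recomputed, quantile normalised and SD-scaled Z-scores but overlapped after normexp, where they were 6.61 and 3.50 on 5mC and 0.562, -0.190, 6.56 and 4.50 on 5hmC. The gap of CtaCgtaa over ttaggtaa was 21.0 and 31.5 on 5mC and -7.54, -18.8, -13.6 and -10.0 on 5hmC. It changed sign between the bases on every array, after normexp as well (5.35 and 3.19 against -3.14, -8.40, -16.3 and -5.91).

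The CRE palindrome tgaCgtCa, the site of wild-type CREB1, had 23.0 and 23.3 on the reference arrays, 9.18 and 2.68 on 5mC and 0.558, 0.534, -0.337 and 1.41 on 5hmC. The arrays on 5hmC were near 0, below both on 5mC, and the difference between the modified bases was -5.39 (SE 10.7; limma, adjusted p = 0.85). Its rank by group mean was 6 for C, 157 for 5mC and 16145 for 5hmC. The PAR/CRE hybrid ttaCgtCa, the reverse complement of tgaCgtaa, had 24.4 and 28.9 on C, 7.54 and 2.97 on 5mC and 0.239, 0.122, 1.29 and 1.49 on 5hmC. The hybrids that join a PAR core and a C/EBP core were lower on 5hmC on every array: ttgCgtaa had 9.71 and 16.0 on 5mC against 2.02 to 9.29, and ttaCgCaa 7.94 and 13.1 against 3.74 to 6.06. The C/EBP palindrome ttgCgCaa, at 3.19 and 5.13 against 1.41 to 6.73, and the composite site tgatgCaa, at 3.83 and 2.12 against 0.281 to 4.21, overlapped. Over the 11 joined and composite sites the mean was lower on 5hmC at 11, all arrays on 5hmC were below both on 5mC at 8, and 0 were called (limma, adjusted p from 0.084 to 0.99). Of all 8-mers, 54.8% had a lower mean, 10.7% had all arrays on 5hmC below and 0.606% were called lower. On the asinh scale 3 of the 11 sites passed, namely ttaCgtaa, tgaCgtaa and ttaCgtCa (limma, adjusted p = 0.020, 0.044 and 0.029).

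The limma fit over all 21 arrays called 524 of 65535 8-mers (0.800%) at an adjusted p under 0.05, with 10798 at an unadjusted p under 0.05. Of the calls, 397 (0.606% of all 8-mers) were lower on 5hmC and 127 (0.194%) were higher. The number rests on the choice of arrays. It was 0 with the 8 arrays of this mutant alone (6396 at an unadjusted p under 0.05), 0 with the 6 arrays alone (5253 unadjusted), 4 without 5hmC replicates 3 and 4 and 4 with the run as a fixed block. Without 5mC replicate 2 it was 0 (7600 unadjusted) and without 5mC replicate 1 it was 271. It was 3983 without 5hmC replicate 1, 615 without replicate 2, 151 without replicate 3 and 300 without replicate 4. Arrays of other groups, which set the pooled spread, moved it as well. It was 102 without either array of CREB1 on 5hmC, 194 or 196 without one of CEBPB(V285A) on C, 336 or 338 without one of CEBPB(V285A) on 5mC, 279 or 280 without one of CEBPB on 5hmC and at most 287 without one of CREB1 on C.

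The 397 8-mers called lower were poor in C-free members: 8 (2.02%) had no C, against 10.0% of all 8-mers, and 243 (61.2%) held CG, against 38.1%. CGTAA, a PAR core after a C, was present in 61 of them, out of 256 8-mers in all that hold it. CGTAAT was in 17, out of 48. Most of the 397 had no PAR, CRE or C/EBP core on either strand. Background 8-mers hold none of these cores, no E-box (CACGTG) and no ETS site (CCGGAA). Of those with CG, 169 of 22335 (0.757%) were called lower, and of those without CG, 140 of 35463 (0.395%). The mean Z-score of the 397 had a median of 1.90 on 5mC, -0.284 on 5hmC and 0.447 on C. CtgCgtaa fell from 7.21 and 14.9 on 5mC to -0.0708, -0.920, 0.225 and 1.96 on 5hmC (difference -10.7; limma, adjusted p = 0.027). CaaCgtaa fell from 9.80 and 18.1 to 5.31, 5.23, 2.81 and 1.83 (difference -10.2; limma, adjusted p = 0.031). On the reference arrays CtgCgtaa was low, at 0.0503 and 0.558 (rank 24491 by mean). CaaCgtaa was at 3.83 and 4.17 there, rank 432 by mean of all 8-mers. The 10 named falls all held CGTAA and lay between -32.1 and -5.90. Of these, tCgtaata (difference -11.1; limma, adjusted p = 0.036) turned after normexp, to 0.162.

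Among the 127 8-mers called higher 28 (22.0%) had no C, against 10.0% of all 8-mers, and 10 (7.87%) held CG, against 38.1%. A PAR core on the new strand was held by 0 of them. Only 1279 of all 65535 8-mers hold it, so few would be looked for among 127. The changes of the 127 were small, 3.00 at most. Their means had a median of -0.924 on 5mC and 0.909 on 5hmC, within the bulk of all 8-mers. ttaatttt rose from -0.995 and -1.61 to 0.533, 0.867, 2.02 and 3.37 (limma, adjusted p = 0.042). aaaCtttt rose from 0.136 and 0.171 to 3.48, 2.43, 2.59 and 2.69 (limma, adjusted p = 0.018). The other 8 of the 10 largest rises lay between 2.40 and 2.63.

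**Figure D2:**
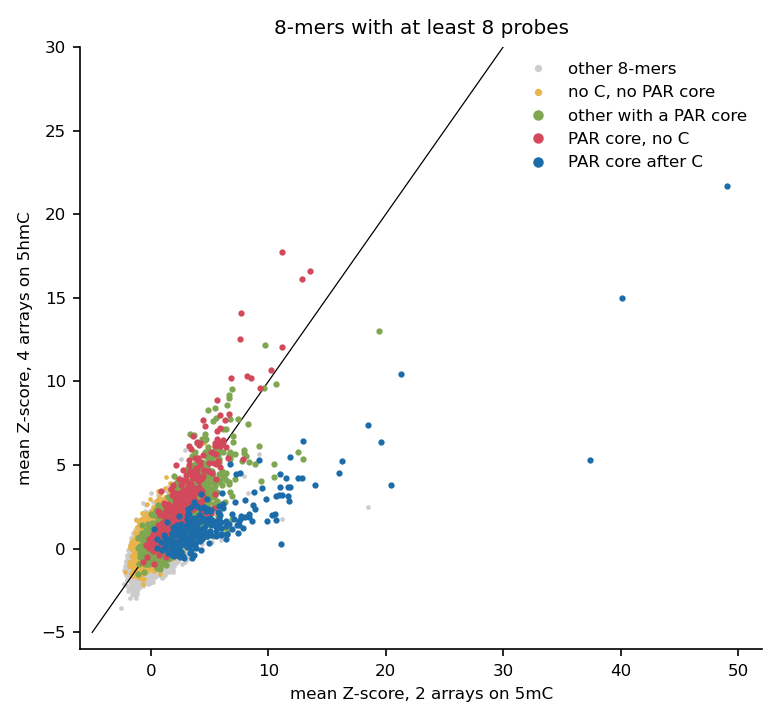
Mean Z-score of each 8-mer with at least 8 probes over the 2 arrays on 5mC (horizontal) and the 4 arrays on 5hmC (vertical); the line marks equal values. 8-mers with a PAR core after C lie mostly below the line, with the PAR palindrome at 49.0 and 21.7, while those with a PAR core and no C lie on both sides of it.

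The lists of 8-mers with the same core showed how the differences varied with the core and the base before it. Each list holds the 64 8-mers that end in 1 base and a core. For C before the PAR core (NNNCGTAA) the median Z-score was 2.74 and 4.44 on 5mC and 1.37, 1.47, 0.646 and 0.911 on 5hmC, against 1.32 and 1.84 on C. The median difference was -2.57, with all arrays on 5hmC below both on 5mC for 44 of 64 and 13 called lower. Over all 8-mers the median difference was -0.0844, and 10.7% had all arrays on 5hmC below. For T before the PAR core (NNNTGTAA) the medians were 2.48 and 2.91 on 5mC and 2.67, 3.12, 1.77 and 2.46 on 5hmC, with a median difference of 0.0322 and 4 of 64 below. A and G before it gave median differences of -0.128 and -0.117, with 10 and 4 of 64 below. Within the shared run the median differences after T, A and G were 0.369, 0.140 and 0.218, so the sign after A and G turned. The shift at NNNCGTAA stayed negative under every alternative run for the lists, from -3.56 after quantile normalisation to -1.17 on the asinh scale, and was -2.21 within the shared run.

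The C/EBP core, GCAA, was likewise lowest on 5hmC against 5mC after C, at lower levels. NNNCGCAA had medians of 1.07 and 1.77 on 5mC and 0.105, 0.192, 0.337 and 0.142 on 5hmC, with a median difference of -1.21 and 31 of 64 below. For NNNTGCAA the median difference was -0.472, with 12 of 64 below. The CRE core after C, NNNCGTCA, was low on both bases, with medians of 0.256 and 0.283 on 5mC and -0.237, -0.0265, -0.225 and -0.130 on 5hmC (median difference -0.540, 19 of 64 below).

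**Figure D3:**
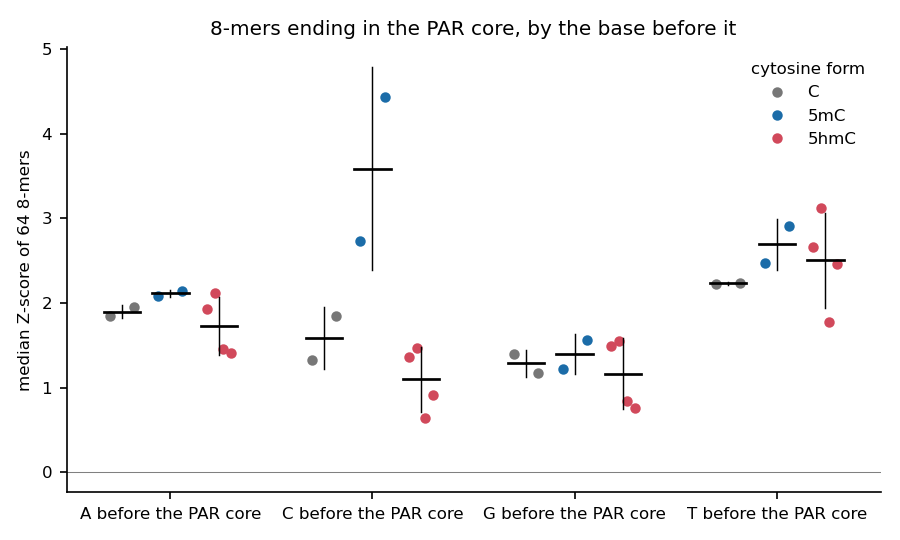
Median Z-score of the 64 8-mers that end in the PAR core, by the base before it (horizontal axis), on each array; points are arrays, horizontal lines group means and vertical lines 1 SD. With C before the core the arrays lie at 2.74 and 4.44 on 5mC and between 0.646 and 1.47 on 5hmC, and with T before it the groups overlap.

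The opposite strand shows the same sites with the other cytosine modified. In TTACGNNN, the reverse complements of NNNCGTAA, the modified C pairs with the G of the PAR core. Its medians were 1.57 and 1.85 on 5mC and 0.694, 1.03, 0.450 and 0.970 on 5hmC, a median difference of -0.904 with 28 of 64 below, a smaller shift than that of NNNCGTAA. TTACANNN, without CG, had 2.04 and 2.59 on 5mC and 2.15, 2.28, 1.60 and 2.24 on 5hmC, with 10 of 64 below, and its median difference of -0.347 turned to 0.149 after normexp. Within the shared run the median difference was -0.799 for TTACGNNN and -0.618 for TTACANNN. It was -0.544 for TTACCNNN and -0.438 for TTACTNNN, so lists with and without CG lay closer together there. For the single pair tgaCgtaa and ttaCgtCa, which are one site with the modification on either strand, the first exceeded the second by 27.5 and 42.3 on 5mC, by 12.2, 15.7, 16.7 and 12.3 on 5hmC and by 11.2 and 10.2 on C. CtaCgtaa exceeded its reverse complement ttaCgtag by 23.4 and 38.8 on 5mC, by 5.06, 4.18, 3.82 and 3.12 on 5hmC, and by -1.34 and -3.05 on C. In both pairs the gap was widest on 5mC, and all arrays on 5hmC lay below both on 5mC.

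The PAR palindrome and its 24 single mismatches were described as 1 family of 25 8-mers. Of the 22 with a C, 20 had a lower mean on 5hmC and in 17 all arrays on 5hmC were below both on 5mC, with 2 called. Among all 8-mers 54.8% had a lower mean, 10.7% had all arrays on 5hmC below and 0.606% were called lower. Of the 3 without C, 3 had a higher mean and in 2 all arrays on 5hmC were above, where 6.43% of all 8-mers did so. The median difference was -4.03 with C and 6.37 without. The 2 that were called were CtaCgtaa and ttaCgaaa, which fell from 8.72 and 10.0 to 5.45, 3.58, 3.48 and 3.63 (limma, adjusted p = 0.047). The call at ttaCgaaa was lost under 24 of 36 alternatives, and the 21 called 8-mers named here each lost theirs under 8 to 26. The groups overlapped in the 3 mismatches that keep the C but break the CG: ttaCCtaa had 4.74 and 2.64 on 5mC and 4.19, 3.50, 4.89 and 3.09 on 5hmC, ttaCttaa had 4.39 and 5.52 against 4.37, 5.67, 1.57 and 5.68, and ttaCataa had 16.6 and 22.2 against 14.0, 19.1, 7.31 and 11.7. By contrast, in 16 of the 18 mismatches with CG all arrays on 5hmC were below.

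8-mers were also sorted by their cytosines alone. Those without any C had medians of 0.354 and 0.150 on 5mC and 0.560, 0.380, 0.450 and 0.390 on 5hmC, a median difference of 0.163. In 10.4% of them all arrays on 5hmC were above, against 6.43% of all 8-mers. Among 8-mers with exactly 1 C, the base after it went with the direction. The median difference was -0.190 before G, -0.0770 before A and 0.180 before T. Within the shared run it was -0.0765 before G, -0.0435 before A and 0.120 before T. The value before G was there close to that of all 8-mers, -0.0762. All arrays on 5hmC were below both on 5mC in 12.9% of those with C before G and in 4.88% of those with C before T, against 10.7% of all 8-mers. These shifts are small beside those at the PAR sites and cover 8-mers with little binding.

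The 100 highest 8-mers of each array differed in make-up. C stood before a PAR core in 40 and 60 of them on 5mC, in 9, 5, 4 and 8 on 5hmC and in 15 and 14 on C. T stood before it in 9 and 13 on 5mC, 22, 34, 19 and 30 on 5hmC and 10 and 11 on C. 8-mers without any C made up 10 and 12 on 5mC, 29, 36, 35 and 29 on 5hmC and 23 and 14 on C. In none of these counts did the modified groups overlap. The counts are not independent: each array has 100 places, so fewer 8-mers of 1 kind leave room for others. Over all 64 NNNTGTAA the median difference was 0.0322. By group mean, 33 of the 100 highest were shared by 5mC and 5hmC, against 49 shared by C and 5mC and 39 by C and 5hmC. Of the 100 highest by mean, 8 on 5mC and 22 on 5hmC had fewer than 8 probes.

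**Figure D4:**
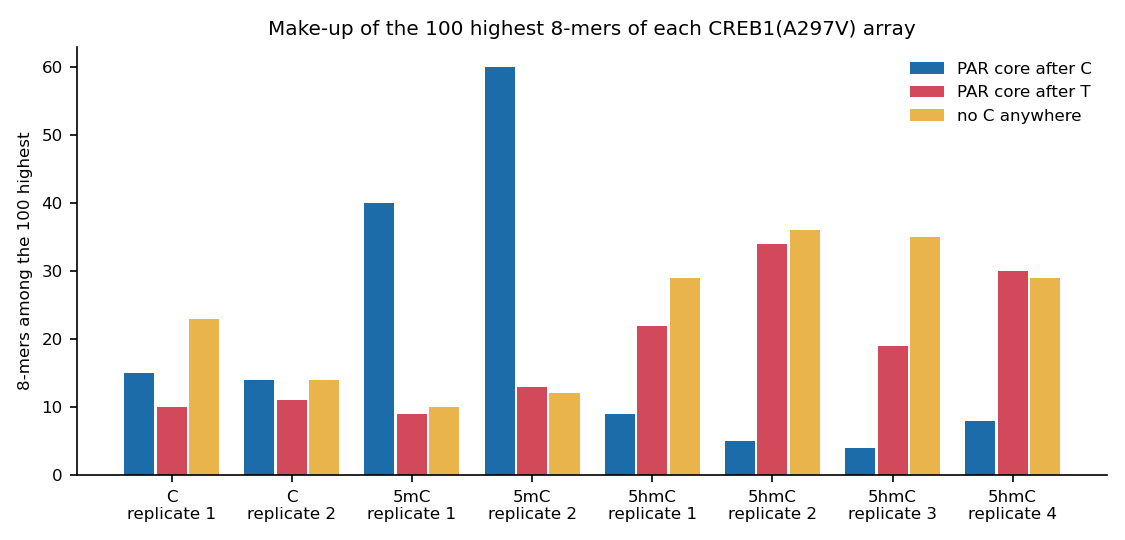
Number of 8-mers of 3 kinds among the 100 highest Z-scores of each CREB1(A297V) array; bars are single arrays and a given 8-mer can count for more than 1 kind. A PAR core after C is in 40 and 60 on 5mC and in 4 to 9 on 5hmC, and a PAR core after T in 9 and 13 on 5mC and in 19 to 34 on 5hmC. Each array has 100 places, so fewer 8-mers of 1 kind leave room for others.

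The 6 C-free 8-mers among the 10 named as highest on 5hmC all held a PAR core. atgtgtaa had 12.1 and 15.1 on 5mC and 14.6, 20.2, 16.6 and 14.8 on 5hmC (difference 2.99; limma, adjusted p = 0.47). tgagtaat, with an A before the core, had 8.16 and 7.04 against 7.18, 11.5, 20.3 and 11.0, and tttgtaat had 7.65 and 8.77 against 10.1, 15.5, 4.83 and 10.8. All 3 overlapped between the bases.

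Single probes show these sites in units of fluorescence. The probes below carry the 8-mer, in capitals, in their middle, at least 5 bases from either end. The first 3 had the ratio of 5hmC to 5mC nearest the median of the 13 probes with the PAR palindrome there and no other joined site. The last 2 are the nearest to the median for CtaCgtaa and for ttaggtaa, sites chosen after their values were seen.
PAR palindrome, probe 1: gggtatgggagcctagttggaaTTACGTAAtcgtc
PAR palindrome, probe 2: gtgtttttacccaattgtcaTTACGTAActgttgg
PAR palindrome, probe 3: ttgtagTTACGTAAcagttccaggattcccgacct
PAR palindrome with C first: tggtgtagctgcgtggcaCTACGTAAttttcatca
PAR palindrome with central C to G: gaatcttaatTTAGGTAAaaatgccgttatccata

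Probe 3 had an intensity of 14874.5 and 17447 on 5mC and of 4101.5, 4577, 230 and 745.5 on 5hmC. Relative to the median spot of its array this was 8.00 and 7.40 on 5mC and 2.93, 2.74, 3.03 and 2.59 on 5hmC, against 11.0 and 7.69 on C. For probe 3 all 4 ratios on 5hmC were far below both on 5mC and close together, although the arrays differed widely in brightness. Probes 1 and 2 were also lower on every 5hmC array, but their ratios were less even. Probe 1 was 35.2 and 27.8 times the median spot on 5mC and 18.6, 16.2, 6.79 and 8.13 times on 5hmC. Probe 2 was 28.7 and 27.8 times on 5mC and 13.4, 9.87, 8.52 and 10.1 times on 5hmC. Probe 1 was at 65528, the highest intensity on any of these arrays, on both 5mC arrays. Probe 2 was at that intensity on 5mC replicate 2. The ratios of those spots are therefore lower bounds. The CtaCgtaa probe was 6.72 and 27.3 times the median spot on 5mC and 4.96, 4.11, 2.11 and 3.15 times on 5hmC. The ttaggtaa probe was 1.54 and 1.29 times the median on 5mC and 1.62, 1.38, 1.61 and 1.32 times on 5hmC.

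Over all 18 probes with ttaCgtaa the median spot was 7.12 and 7.54 times that of the array on 5mC and 2.81, 2.58, 2.07 and 2.59 times on 5hmC. This was 2.94-fold lower on 5hmC, as a mean of log2 ratios. The ratios for CtaCgtaa were 5.25 and 7.00 on 5mC and 1.56, 1.46, 1.37 and 1.29 on 5hmC, a 4.29-fold difference. For ttaggtaa they were 2.23 and 2.47 on 5mC and 2.57, 2.43, 1.69 and 1.93 on 5hmC, with overlap, and were 1.10-fold lower on 5hmC, where the Z-score was higher. For ttatgtaa they were 1.68 and 2.26 on 5mC and 1.97, 2.07, 1.5 and 1.96 on 5hmC, also with overlap and 1.05-fold lower on 5hmC. After normexp the log2 ratio of 5hmC to 5mC was -2.17 for ttaCgtaa, -3.16 for CtaCgtaa, -0.387 for ttaggtaa and -0.378 for ttatgtaa, so the sites with C again had the larger falls in intensity. On 5mC replicate 2, 3 of the 18 probes with ttaCgtaa and 1 of the 15 with CtaCgtaa were at 65528, the highest intensity on any of these arrays. For ttaCgtaa, 1 probe was also at it on 5mC replicate 1 and 1 on replicate 2 of the reference arrays. None were on 5hmC. All 13 of the middle-placed PAR probes and all 10 of those with CtaCgtaa were lower on 5hmC, but 4 of 11 with ttaggtaa were.

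The step from 5mC to 5hmC was compared with that of the other proteins at the named 8-mers. Neither CREB1 nor CEBPB(V285A) has arrays on 5mC and on 5hmC in the same run, so their steps cannot be told apart from the run. At the PAR palindrome CEBPB(V285A) had 89.3 and 77.2 on 5mC and 131 and 106 on 5hmC, higher on both arrays, while CREB1(A297V) was lower. The difference between the steps was -62.2 (limma, adjusted p = 0.0054), but it did not pass on the asinh scale (adjusted p = 0.11) or after quantile normalisation (adjusted p = 0.056) and turned to 3.16 after normexp. Wild-type CREB1 had 11.3 on its 1 array on 5mC and 20.3 and 24.2 on 5hmC (difference between the steps -38.3; limma, adjusted p = 0.24). At the composite site tgatgCaa CREB1 had 42.4 on 5mC and 141 and 171 on 5hmC, where CREB1(A297V) stayed between 0.281 and 4.21. That difference between the steps was -114 (limma, adjusted p = 0.0021), with the spread of the lone CREB1 array on 5mC taken from the other groups, so that this p does not cover the variation of that arm. It did not pass under the asinh scale, quantile normalisation, recomputed Z-scores or normexp (adjusted p from 0.18 to 0.85).

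Across all 8-mers the step differed between CREB1(A297V) and CEBPB(V285A) for 1217 (1.86%) and between CREB1(A297V) and CREB1 for 276 (0.421%). Of the 64 NNNCGTAA, 7 and 0 were among these, and of the 64 NNNCGCAA, the C/EBP core, 54 and 7 were. The scaling moved these counts: on the asinh scale they were 3 and 2 (7749 and 7358 had an unadjusted p under 0.05 on the deposited scale).

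**Figure D5:**
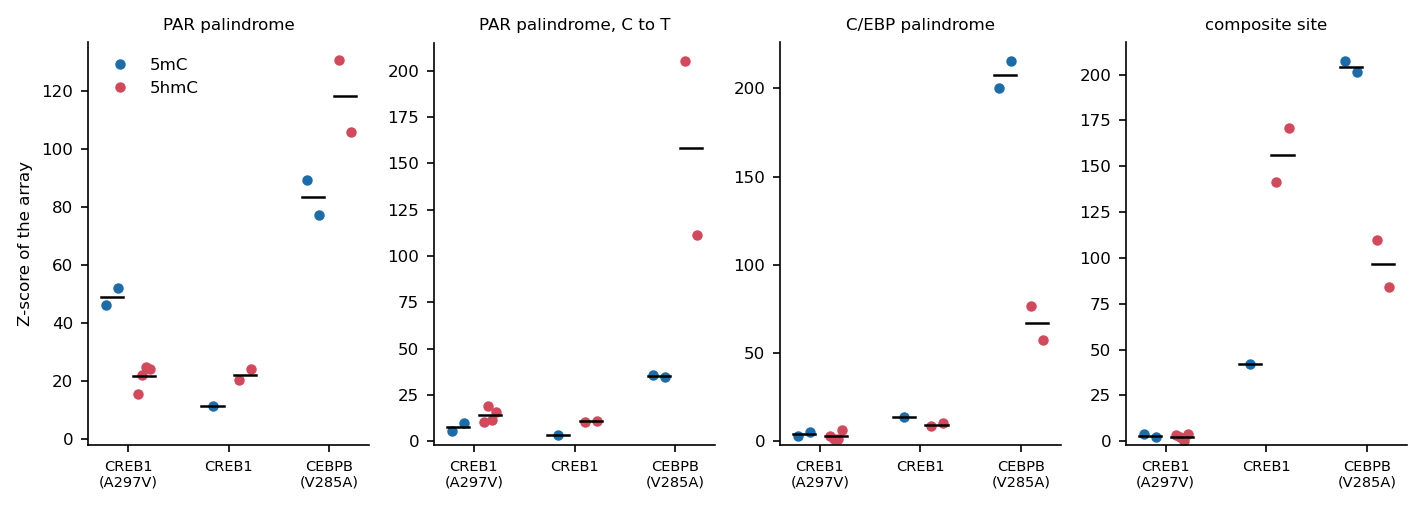
Z-score on each array with 5mC or 5hmC for CREB1(A297V), CREB1 and CEBPB(V285A) at 4 sites; points are arrays and lines group means, and each panel has its own vertical scale. At the PAR palindrome CREB1(A297V) goes from 46.1 and 52.0 on 5mC to between 15.7 and 24.7 on 5hmC, while CEBPB(V285A) goes from 89.3 and 77.2 to 131 and 106.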

How the data were processed

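Protein binding microarrays of mouse bZIP domains gave 2 kinds of deposited values. The authors deposited 1 matrix of a Z-score (unit: score) per 8-mer and array, and for each array a table of spot and local background intensity, per the file headers. How Z-scores were computed from intensity is not given in the sources used here. Deposited 8-mer names were complemented base by base to give the new strand, taking the printed sequence as the template; that assumption was not tested. Of 65535 8-mers, 409 had no probe and 1024 had fewer than 8.

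limma 3.58.1 (R 4.3.3) was fitted to the Z-scores of all 21 arrays in 10 groups, with a mean-variance trend, Benjamini-Hochberg adjustment over all 8-mers and a threshold of 0.05, after the code was tested on simulated data. The lone array of CREB1 on 5mC took its spread from the rest. Probe intensities were divided by the median spot of their array. Alternatives were normexp background correction (offset 50), recomputed Z-scores, other scales, other sets of arrays and the run, the number in the deposited file names, as a block.

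Named 8-mers were 11 joined and composite sites, the 10 largest falls and rises among called 8-mers with at least 8 probes and no overlap between arrays, the 10 highest by mean on each base (skipping those that share 7 bases in a row or a reverse complement) and the 3 C-free PAR sites. ttaCgaaa, named as 1 of 2 calls in its family, and ttaCttaa, ttaCCtaa and ttaCgtag were named after their values were seen. Members and lists were chosen with earlier results of these data known.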

Additional observations from a re-analysis of the deposited data

Results flagged for a closer look

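Within the 4 arrays on 5hmC, 1 array stood apart from the other three at 6 of 61 values examined for it, where chance gives about 1 in 20. These were ttgCgtaa on replicate 4 (9.29, others 2.02 to 3.20), ttgCgtCa on replicate 2 (0.687), tCgtaata on replicate 3 (3.32), aCaCgtaa on replicate 1 (4.43), ttaCgaaa on replicate 1 (5.45) and gtgtaatC on replicate 1 (9.09). No single array accounted for all of them.

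The step from 5mC to 5hmC differed between CREB1(A297V) and CEBPB(V285A) in limma at 7 named 8-mers: by -62.2 at ttaCgtaa, 166 at tgaCgCaa, 139 at ttgCgCaa, 107 at tgatgCaa, -29.4 at CtaCgtaa, 154 at CtaCgCaa and -117 at ttatgtaa. From CREB1, with 1 array on 5mC, it differed at tgatgCaa, by -114. Neither of these proteins has 5mC and 5hmC arrays in the same run, so step and run cannot be told apart. At the 4 sites with a C/EBP core the positive values went with lower Z-scores of CEBPB(V285A) on 5hmC, whose ttgCgCaa went from 200.2 and 215 to 76.9 and 57.7. All 8 differences lost their call under at least 1 other scale.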

How the results depend on the processing

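The count of 524 called 8-mers was 0 with the mutant's arrays alone, the 2 groups alone or the shared run alone (6442 unadjusted), 4 with the run as a fixed block and 4 without 5hmC replicates 3 and 4, 17 with array weights, 310 with the run as a random block (chosen after seeing the data), 842 on the asinh scale, 966 after quantile normalisation and 3214 divided by the array SD. Leaving out 1 array gave 0 to 3983. With the replicate number as a block it was 7; the labels do not say that numbers pair arrays, and same-numbered arrays deviated together with r = 0.21. The count against CEBPB(V285A), 1217, was 748 with the random block and 3, 487, 335, 795 and 382 on the asinh, quantile, SD, recomputed and normexp scales (888 to 1561 over left-out arrays). The count against CREB1, 276, was 471 without 5hmC replicates 3 and 4, 644 with the replicate block, 129 with the random block, 633 with array weights and 2, 425, 161, 88 and 1 on those scales (103 to 415 over left-out arrays). Neither could be fitted with the run as a fixed block.

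Signs turned after normexp at ttaCgtaa (6.49), tgaCgtaa (5.63), ttgCgCaa (0.179), tgatgCaa (0.00716), tCgtaata (0.162), tgtCgtaa (3.16), ttaCataa (3.86), ttaCttaa (1.05), TTACANNN (0.149) and, against CEBPB(V285A), ttaCgtaa (3.16), with quantile normalisation at ttgCgCaa (0.102) and, against CEBPB(V285A), CtaCgCaa (-15.3), and with recomputed Z-scores at ttgCatCa (0.185) and, against CEBPB(V285A), tgaCgCaa (-2.19), ttgCgCaa (-5.63), tgatgCaa (-6.18) and CtaCgCaa (-2.18). At ttaCttaa the difference was 0.0685 with the replicate block, with the run as a fixed block, with the shared run alone and without 5hmC replicates 3 and 4. Over left-out arrays 5 sites near 0 turned: ttaCCtaa (-0.818 to 1.28), ttaCttaa (-1.20 to 0.287), tgatgCaa (-1.31 to 0.397), ttgCatCa (-1.40 to 0.361) and tgaggtaa (-0.810 to 2.60).

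The median difference of NNNCGTAA was -1.17 (asinh), -1.66 (normexp) and -3.56 (quantile), and -3.46 to -1.90 over left-out arrays. The excess of C-free 8-mers on 5hmC among the 100 highest, 21.25 percentage points, was 16.1 among the 200 highest, 27.25 with at least 8 probes, and 20.0 to 22.3 over left-out arrays. The log2 ratio at ttaCgtaa was -1.55, and -2.17 after normexp. The mean gap of ttaCgtaa over ttatgtaa was 41.3 on 5mC and 7.59 on 5hmC, a difference of -33.7 without overlap. After normexp the mean gap was 5.99 on 5mC and 6.15 on 5hmC, with overlap, so the difference turned to 0.157. The dim 5hmC arrays limit what weak sites can show. The top of the scale was lower on 5hmC too. The highest Z-score of any 8-mer was 15.7, 25.4, 25.6 and 31.1 on 5hmC replicates 1 to 4. On 5mC it was 46.1 and 52.0, both at ttaCgtaa. How far the falls at the strongest sites go with this narrower range was not tested.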

Other observations

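The effect of the first base within NNNCGTAA was looked at after the values were seen. With C first, the median Z-score of the 16 8-mers was 0.429 and 0.990 on C, 2.61 and 6.61 on 5mC and 1.08, 1.09, -0.112 and 0.532 on 5hmC. With T first it was 3.19 and 3.41 on C, 4.08 and 6.01 on 5mC and 2.89, 2.27, 1.69 and 2.96 on 5hmC. The 8-mers with 2 modified cytosines in these places were thus low on C and on 5hmC and raised on 5mC, while those starting with T were the highest of the 4 kinds on C and on 5hmC and, by mean, on 5mC (5.04 against 4.61 with C first). The median difference between 5hmC and 5mC was -4.04 with C first, -3.46 with T, -2.25 with G and -2.004 with A, and 7, 2, 1 and 3 of 16 were called lower, against 0.606% of all 8-mers. No 8-mer was called with the arrays of this mutant alone or without 5mC replicate 2 (6396 and 7600 had an unadjusted p under 0.05 in limma).

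CtaCgCaa, with the same first bases before a C/EBP core, had 1.87 and 2.13 on C, 12.6 and 24.3 on 5mC and 4.37, 2.55, 0.899 and 2.25 on 5hmC. The difference of -15.9 did not pass (limma, adjusted p = 0.34), but it did on the asinh, quantile, SD and recomputed scales. CREB1 had 104 on 5mC at this site and 26.1 and 43.2 on 5hmC, and CEBPB(V285A) had 181 and 198 on 5mC and 27.3 and 10.3 on 5hmC, so it was lower on 5hmC on every array of all 3 proteins.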
